A study of Mus musculus with 6 samples.

Results

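Npas4, Npas1, Npas2, Npas3, Arnt and Arnt2 encode transcription factors of the bHLH-PAS family, and their transcripts were measured in mouse cortical neurons with and without NMDA stimulation. The 6 genes were taken by their symbol from a table of 38293 genes. Each symbol matched 1 row, and all 6 passed the filter on low counts that left 14642 genes for testing. The NMDA group held 3 libraries from neurons given 50 µM NMDA, an agonist of one class of glutamate receptor, for 10 min and then kept in medium without the drug for 50 min. The control group held 3 libraries from untreated neurons. Both groups were wild-type primary cortical neurons of Swiss-Webster mice, prepared at embryonic day 16 and grown for 13 days in vitro, and no transgene or Cre was named for either.

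A bHLH-PAS protein binds DNA only as a dimer, through a basic helix-loop-helix region, and its PAS domains help to choose the partner. Class I members, among them the NPAS, HIF and AHR proteins, carry the regulated input, and class II members, namely Arnt, Arnt2 and the Arntl proteins, serve as shared partners. Npas4 is transcribed in neurons within minutes of calcium entry, needs no new protein for that, and pairs mainly with Arnt2 to act on genes that set inhibitory and excitatory synapses. Arnt2 is the form enriched in brain, whereas Arnt is made in most tissues and is also the partner of the HIF and AHR proteins.

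Total counts were 15417234 to 18606264 in the NMDA libraries and 17860691 to 19183999 in the control libraries. Chi-square values between libraries of the same group were 7.76 to 54.3 per degree of freedom, far above sampling noise. Markers of the labelled cell type were abundant, given here as CPM (read counts scaled to the library's size) summed over each list. Pan-neuron markers summed to 5770 to 6650 CPM in NMDA and 5930 to 6560 CPM in control libraries. Astrocyte markers summed to 2370 to 3610 CPM in NMDA and 2200 to 2860 CPM in control libraries, so the cultures also held astrocyte RNA. Microglia markers came to at most 5.12 CPM in NMDA and 5.28 CPM in control libraries, and the endothelial marker Cldn5 had 0 counts in all 6. In such bulk samples fewer cells of a type and less RNA per cell cannot be told apart. The labels do not say that the 3 libraries of a group came from separate cultures, and the protocol speaks of fewer biological replicates than are listed, so the p-values here reflect only the spread among the 6 libraries, part of which may be technical.

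The start-site sequences of the members differed in the motifs that activity-regulated and bHLH-PAS factors are known to read. They are shown for Npas4, the member with the large change, for Arnt, which holds the closest match to the same element, and for Npas3, whose call depended on the pairing of libraries. Sequences are from RefSeq on GRCm38.p6, which held all 6 members, and are written 5′ to 3′ on the strand of the gene. For Npas4 only short stretches are shown, because a GENCODE transcript starts 345 bases upstream of the RefSeq start and covers the whole window, both stretches included. The windows of Npas1 and Npas2 likewise lie downstream of their outermost GENCODE starts, which are 948 and 541 bases upstream of the RefSeq starts. Part of the Arnt2 window does too, as its outermost GENCODE start is 138 bases upstream of the RefSeq start. The first Npas4 stretch lies at chr19:4990128-4990157 on the minus strand, 186 to 157 bases upstream of the RefSeq start, and its capitals mark TGACGTC, the core of the cAMP response element bound by CREB, on either strand. The second lies at chr19:4989980-4990009, 38 to 9 bases upstream, with TATAA in capitals. The Arnt window is chr3:95434140-95434387 on the plus strand, with the full element TGACGTCA and a further TGACG in capitals. The Npas3 window is chr12:53248182-53248431 on the plus strand, and its capitals mark CACGT, which reads ACGTG on the other strand, the core bound by HIF and Arnt dimers.
Npas4, response element: cgttcGACGTCAcgggaTGACGTCggaagt
Npas4, TATA stretch: tgtcaggagctaTATAAggcggatcgaggc
Arnt: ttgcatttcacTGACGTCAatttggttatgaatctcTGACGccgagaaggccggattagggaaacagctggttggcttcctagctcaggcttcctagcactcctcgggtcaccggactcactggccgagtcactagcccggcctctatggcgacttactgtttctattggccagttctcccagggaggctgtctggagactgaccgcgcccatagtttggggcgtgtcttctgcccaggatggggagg
Npas3: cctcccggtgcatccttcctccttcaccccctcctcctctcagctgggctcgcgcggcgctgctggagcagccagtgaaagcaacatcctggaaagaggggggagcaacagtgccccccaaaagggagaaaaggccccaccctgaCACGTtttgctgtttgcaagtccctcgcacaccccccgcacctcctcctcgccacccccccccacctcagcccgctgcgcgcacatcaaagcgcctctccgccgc

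The motifs were searched on both strands in the 250 bases upstream of each RefSeq start. TGACGTC, which is contained in TGACGTCA and contains TGACG, occurred in 2.78% of 32851 such windows of 27025 genes. Among the members it occurred in the Npas4 window, with 2 matches at 181 to 175 and 169 to 163 bases upstream, and in the Arnt window within TGACGTCA at 239 to 232 bases. The full TGACGTCA was present in 1.55% of all windows, and among the 6 only in that of Arnt. TCGTG, reported as a core of Npas4 binding sites, was found in the Npas1 and Npas2 windows and in 13.34% of all windows. ACGTG was found in the Npas2 and Npas3 windows and in 16.57% of all, and CACGTG, which contains it and which Clock and Npas2 dimers bind, in none of the 6 and in 6.02% of all. GCGTG, the core read by AHR and Arnt dimers, matched once each in the Npas4, Npas2 and Arnt windows and in 28.16% of all windows. TATAA matched in the Npas4 window at 26 to 22 bases upstream, in the Npas1 window at 201 to 197 bases, and in 22.78% of all windows. The CArG box bound by SRF matched in none of the 6 and in 1.47% of all, and the Arnt2 window held none of these motifs. G and C made up 57.2% of the Arnt window, 62.4% to 75.6% of the other members' windows and a median 52.4% over all windows.

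Npas4 was the member that changed by a large factor. Its transcript lay at 49.9, 92.4 and 50.3 CPM in NMDA replicates 1, 2 and 3, against 6.18, 3.95 and 5.80 CPM in control replicates 1, 2 and 3. Every NMDA library was above every control library, as held for 8.18% of all tested genes, and NMDA replicate 2 stood above the other two, while the control of the same number was the lowest library of all. The raw counts behind these values were 744, 1677 and 943 in NMDA and 114, 71 and 110 in control libraries. Npas4 rose to 64.2 ± 24.4 CPM in NMDA libraries, against 5.31 ± 1.19 CPM in control libraries (mean ± SD, n = 3 each), a 12.1-fold difference with a 95% interval of 7.46 to 19.5. Its log2 fold change was 3.59 ± 0.30 (SE), with an edgeR quasi-likelihood adjusted p of 0.00324 over all genes tested. Of those 14642 genes 3 had a log2 fold change at least this large, Npas4 itself with Fos and Fosb. The exact two-sided permutation test on the 6 libraries gave p = 0.1, the smallest that 3 against 3 can give. Npas4 (ENSMUSG00000045903) lies on chromosome 19 from 4984355 to 4990316 on the minus strand of GRCm38, with 4136 bases of exon.

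**Figure D1:**
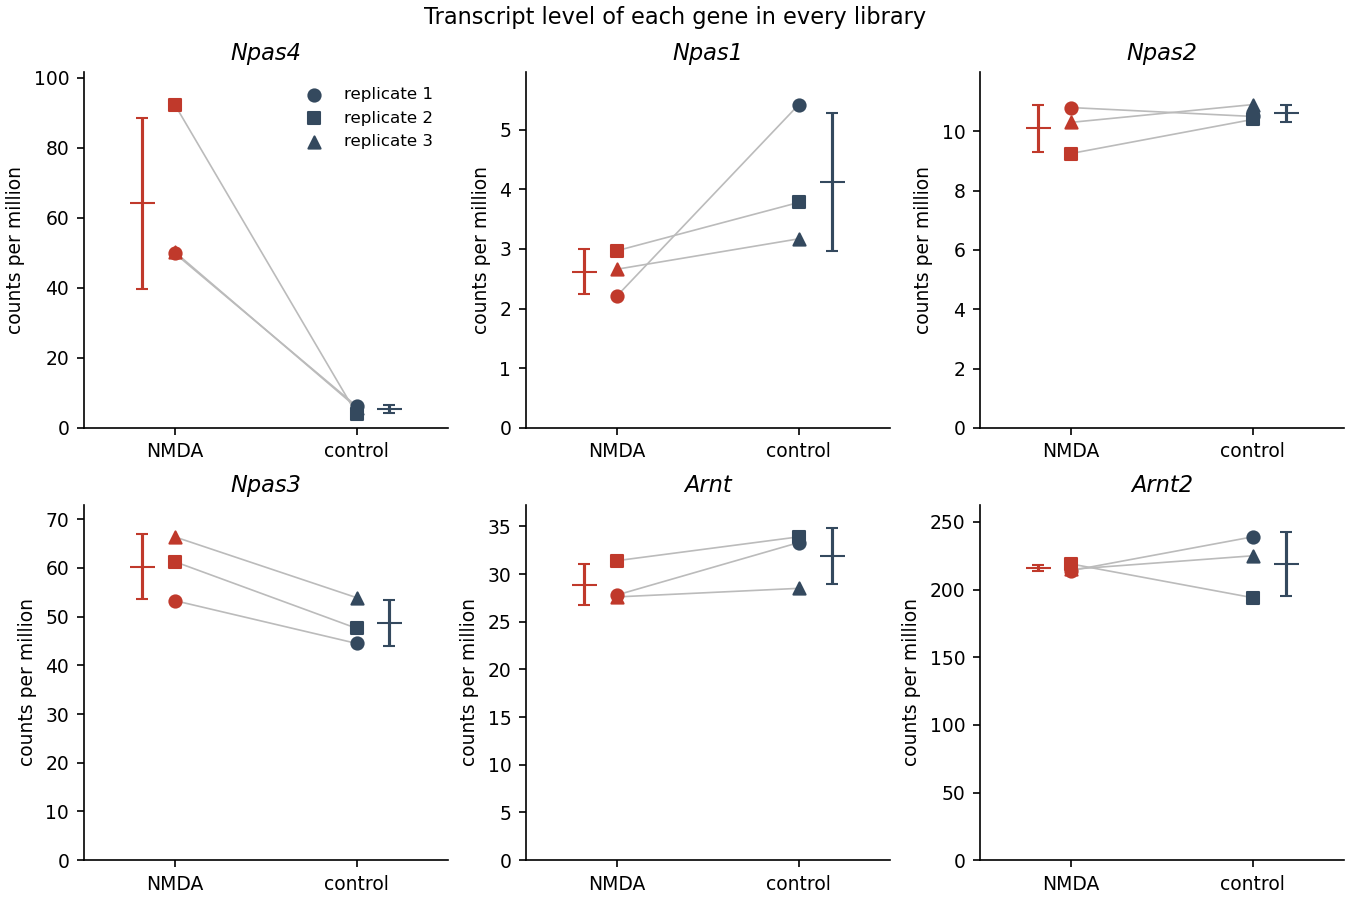
CPM (y axis, linear, from 0) of each member in the 3 NMDA libraries (red, left) and the 3 control libraries (blue, right), with marker shape and grey line joining libraries of the same replicate number and bars giving mean ± SD. Npas4 was between 49.9 and 92.4 CPM in NMDA and between 3.95 and 6.18 CPM in control libraries, while the groups of Npas2, Npas3, Arnt and Arnt2 overlapped.

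The size of the Npas4 change differed between libraries of the same number. Between NMDA and control libraries of replicates 1, 2 and 3 it was 8.08-fold, 23.4-fold and 8.66-fold. With the replicate number as a block the log2 fold change was 3.53 ± 0.37 (edgeR adjusted p = 0.0211), an 11.6-fold difference with a 95% interval of 5.26 to 25.5. With the block and without pair 1, Npas4 no longer passed (log2 3.82, edgeR adjusted p = 0.0942). A change that was largest in pair 2 was common to genes that neurons are known to transcribe first after stimulation. Of 16 other rapid activity-induced transcription factors, 13 had their largest change in pair 2, 1 in pair 1 and 2 in pair 3, with median log2 differences of 2.25, 3.0 and 2.35 in pairs 1, 2 and 3. Among 14 rapid effectors, the proteins through which such a response acts, 12 were largest in pair 2 and the other 2 in pair 1. Over all tested genes the most positive of the 3 pair differences fell in pairs 1, 2 and 3 for 36.4%, 31.9% and 31.7%.

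**Figure D2:**
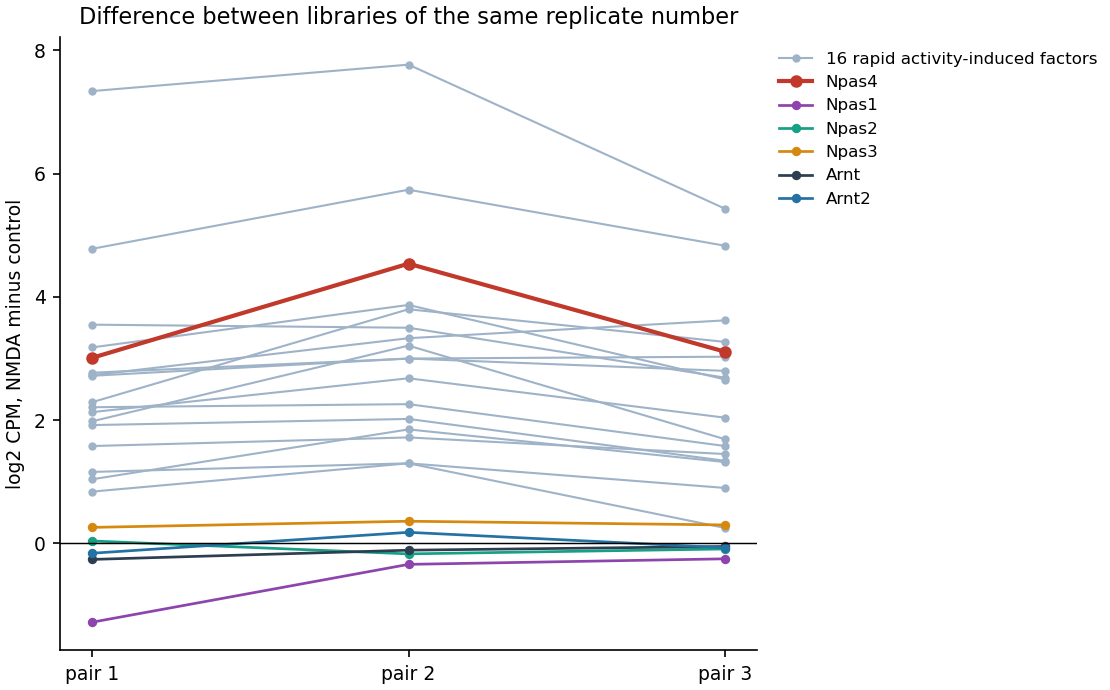
Difference in log2 CPM between the NMDA and the control library of the same replicate number (y axis) for pairs 1, 2 and 3 (x axis), with the 6 members in colour and 16 rapid activity-induced transcription factors in grey. Npas4 differed by 3.01, 4.54 and 3.11, highest in pair 2 like 13 of the 16 grey genes, and Npas3 by 0.26, 0.36 and 0.30, above 0 in every pair.

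Among all 6 members 1 was called higher and none lower without the block, against 0.376% of tested genes called higher and 0.0546% called lower. DESeq2's Wald test and limma-voom also called 1 higher and 0 lower, where they called 1.1% and 0.362% of their tested genes higher and 1.1% and 0.0478% lower. At an unadjusted edgeR p under 0.05, 2 members were higher and 1 lower, against 5.19% and 8.47% of tested genes. With the replicate block 2 were higher and none lower, against 5.65% and 8.35%. With the block in DESeq2 the counts were also 2 and 0, against 3.36% and 3.6%. The median log2 fold change of all tested genes was -0.0054.

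The class II partners, which Npas4 needs to bind DNA, did not pass the test. Arnt2 stood at 214, 219 and 215 CPM in NMDA replicates 1, 2 and 3, against 239, 194 and 225 CPM in control replicates 1, 2 and 3. The NMDA libraries lay within the range of the controls, which spread from a lowest value in replicate 2 to a highest in replicate 1. Arnt2 averaged 216 ± 2.24 CPM in NMDA and 219 ± 23.5 CPM in control libraries, a log2 fold change of -0.02 ± 0.10 (SE) and a ratio of 0.985 with a 95% interval of 0.849 to 1.14 (edgeR adjusted p = 0.94). The sign of so small a value was not stable, as it was 0.04 on the log2 scale without control replicate 1. Arnt2 (ENSMUSG00000015709) lies on chromosome 7 from 84246278 to 84410176 on the minus strand, and 214 bases of its exons overlap the antisense gene Gm30873, whose reads cannot be told apart from its own where the strand setting of the counting is not known.

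Arnt, the widely made partner, had 27.8, 31.4 and 27.6 CPM in NMDA replicates 1, 2 and 3, against 33.3, 33.9 and 28.5 CPM in control replicates 1, 2 and 3. It was lower in the NMDA library of each pair, but the groups overlapped, since NMDA replicate 2 exceeded control replicate 3. The means were 28.9 ± 2.15 CPM in NMDA and 31.9 ± 2.96 CPM in control libraries (SD, n = 3 each), a log2 fold change of -0.14 ± 0.11 (SE) with a ratio of 0.908 and a 95% interval of 0.767 to 1.07 (edgeR adjusted p = 0.607). Both intervals ended far below the 12.1-fold difference of Npas4. Over all tested genes 48.2% had the same sign in all 3 pairs. Arnt (ENSMUSG00000015522) lies on chromosome 3 from 95434388 to 95497240 on the plus strand.

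Divided by exonic length, which allows levels of different genes to be set side by side, Arnt2 was the most abundant member in every library. It had 27.9 to 28.4 CPM per kilobase of exon in NMDA and 25.2 to 31.1 in control libraries. Npas4 had 12.1, 22.3 and 12.2 CPM per kilobase in NMDA replicates 1, 2 and 3, against 1.49, 0.954 and 1.40 in control replicates 1, 2 and 3. On this scale Npas4 came second among the members in the NMDA libraries, ahead of Npas3 at 8.86 to 11.1, and its values there did not overlap those of any other member. In the control libraries Npas4 and Npas1 (1.05 to 1.80 CPM per kilobase) overlapped and were the lowest members. The order of the others was the same in both groups. Npas3 was followed by Arnt, with 3.44 to 3.92 CPM per kilobase in NMDA and 3.56 to 4.23 in control libraries, then by Npas2, with 1.93 to 2.25 in NMDA and 2.17 to 2.28 in control libraries. Npas1 came last in the NMDA libraries, with 0.736 to 0.989 CPM per kilobase.

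The ratio of Npas4 to its partners moved with Npas4. Per kilobase of exon, Npas4 was 0.433, 0.786 and 0.434 of Arnt2 in NMDA replicates 1, 2 and 3, against 0.048, 0.0379 and 0.0479 in control replicates 1, 2 and 3. It therefore remained below Arnt2 in each of the 6 libraries. Set against Arnt and Arnt2 together the ratio was 0.385 to 0.691 in NMDA and 0.0324 to 0.0427 in control libraries. Npas4 made up 21.8%, 32.9% and 21.1% of the summed level per kilobase of the 6 members in NMDA replicates 1, 2 and 3, against 3.10%, 2.29% and 3.01% in control replicates 1, 2 and 3. Arnt2 exceeded Arnt 7.25-fold to 8.13-fold in NMDA and 5.94-fold to 8.23-fold in control libraries. The length of Arnt weighs on that ratio, because its 11 annotated transcripts join to 8007 bases of exon while the longest has 4325. With the longest transcript of each gene as the length, Arnt2 exceeded Arnt 4.83-fold to 5.42-fold in NMDA and 3.96-fold to 5.49-fold in control libraries, and Arnt and Npas3 then overlapped in the control libraries. Among 13428 tested protein-coding genes, the mean level per kilobase of Npas4 exceeded that of 78.3% in NMDA and of 19.3% in control libraries, and that of Arnt2 exceeded 88.2% in NMDA and 88.9% in control libraries.

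**Figure D3:**
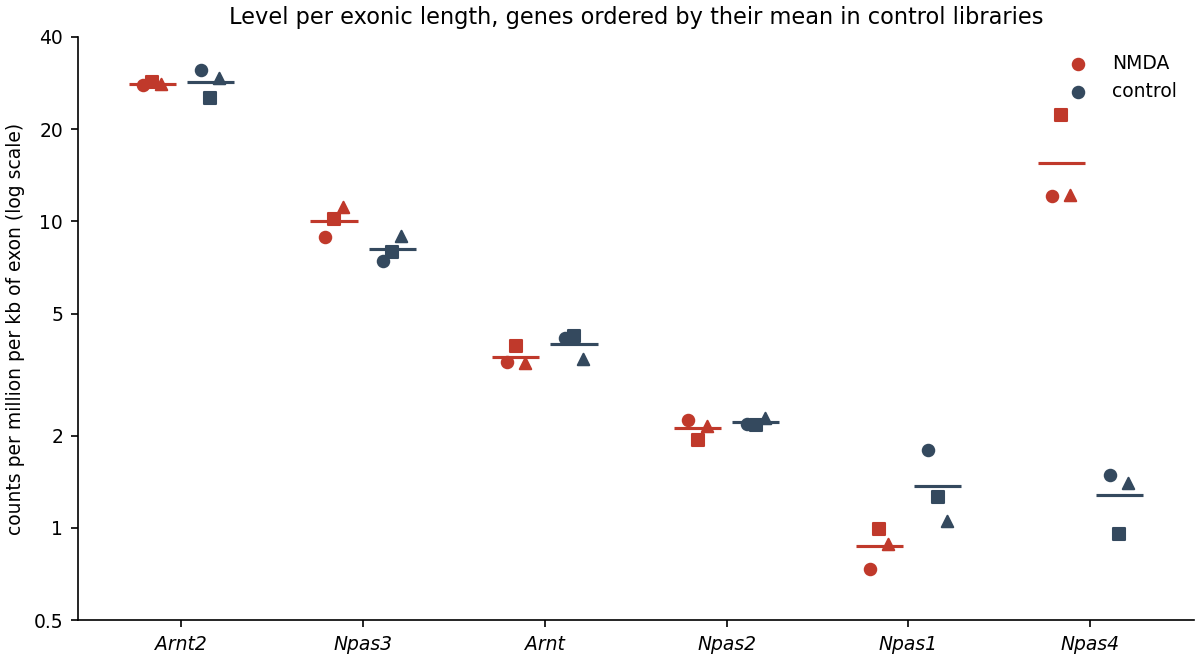
Level of each member as CPM per kilobase of exon (y axis, log scale), with the 3 NMDA libraries in red to the left of the 3 control libraries in blue, marker shapes for replicates as circle 1, square 2 and triangle 3, and a line at each group's mean. Npas4 was at 12.1 to 22.3 in NMDA and at 0.954 to 1.49 in control libraries, and the other 5 genes kept the same order in both groups.

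Of the other NPAS genes, Npas3 passed the test only once libraries were paired. Npas3 acts in neural progenitors and astrocytes, and in mice its loss impairs hippocampal neurogenesis. It had 53.3, 61.3 and 66.4 CPM in NMDA replicates 1, 2 and 3, against 44.5, 47.6 and 53.9 CPM in control replicates 1, 2 and 3. The groups overlapped, because control replicate 3 was slightly above NMDA replicate 1. The NMDA library was the higher one in every pair, by 1.20-fold, 1.29-fold and 1.23-fold. Agreement in sign over all 3 pairs, in either direction, held for 48.2% of all tested genes. The means were 60.3 ± 6.63 CPM in NMDA and 48.7 ± 4.76 CPM in control libraries (SD, n = 3 each). Without the block the log2 fold change was 0.31 ± 0.11 (SE) and did not pass (edgeR adjusted p = 0.272). With the replicate block it was 0.31 ± 0.07 and passed (edgeR adjusted p = 0.00722), a 1.24-fold difference with a 95% interval of 1.12 to 1.38. The blocked call was lost without pair 2 (log2 0.28, edgeR adjusted p = 0.109) and was also made by DESeq2 with the block (adjusted p = 0.0348).

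Markers of astrocytes, a cell type that also makes Npas3, and of neurons were called in the same blocked fit. With the block 7 of 10 astrocyte markers were higher and none lower, and the median log2 fold change in that fit was 0.30. Without pair 2 the blocked call was lost for Sox9, Slc1a3, Aqp4, Gja1, Aldoc and Aldh1l1 (edgeR adjusted p = 0.0655 for Sox9 to 0.443 for Aldh1l1). Of 9 pan-neuron markers 4 were higher and none lower with the block in edgeR, and their median log2 fold change was 0.16. DESeq2 with the block called 4 of these 9 higher and 1 lower. Of all tested genes 5.65% were called higher and 8.35% lower in the blocked edgeR fit. Without the block no marker of either list was called by limma-voom or by edgeR at its default count filter. In that edgeR fit 2 of each list were higher at an unadjusted p under 0.05. With no low-count filter edgeR called the pan-neuron marker Rbfox3 higher (adjusted p = 0.0396). DESeq2 without the block called none of the astrocyte markers and 1 of the pan-neuron markers. Of 10 excitatory neuron markers edgeR with the block called 1 higher and 1 lower, and their median log2 fold change was -0.01. The lower one was Camk2a (log2 -0.39, edgeR adjusted p = 0.00222 with the block). Aldoc, a glycolytic enzyme enriched in astrocytes, had 362, 391 and 411 CPM in NMDA replicates 1, 2 and 3, against 352, 315 and 307 CPM in control replicates 1, 2 and 3. Sox9, an astrocyte transcription factor, had 87.2, 117 and 129 CPM in the NMDA and 72.0, 96.0 and 101 CPM in the control libraries in the same order. Like Npas3, Sox9 was higher in the NMDA library of each pair and overlapped between the groups. The part of astrocyte or neuronal RNA in the Npas3 difference was not tested. Npas3 (ENSMUSG00000021010) covers 823499 bases of chromosome 12, from 53248677 to 54072175 on the plus strand, and 83 bases of its 6007 bases of exon overlap the antisense gene 1700060O08Rik, so that reads there cannot be told apart.

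Npas1, a repressor made in subsets of inhibitory neurons, was the member with the fewest reads and the lowest fold change. It had 2.21, 2.97 and 2.66 CPM in NMDA replicates 1, 2 and 3, against 5.42, 3.78 and 3.17 CPM in control replicates 1, 2 and 3. Every NMDA library was below every control library, as held for 11.1% of all tested genes, and control replicate 1 stood above the rest. The counts were 33, 54 and 50 in NMDA and 100, 68 and 60 in control libraries. Counting error alone gives the count of 33 a 95% Poisson interval of 22.7 to 46.3 and the count of 60 one of 45.8 to 77.2, so single libraries of the groups were not always separable at this depth. Npas1 averaged 2.62 ± 0.383 CPM in NMDA and 4.12 ± 1.16 CPM in control libraries, a log2 fold change of -0.65 ± 0.26 (SE) that did not pass the test (edgeR adjusted p = 0.313). With the replicate block the value was -0.62 ± 0.21 (edgeR adjusted p = 0.0598).

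The Npas1 difference was largest in pair 1. Its log2 values were -1.28, -0.34 and -0.25 in pairs 1, 2 and 3. Without control replicate 1 the log2 fold change was -0.40, and with the block and without pair 1 it was -0.29 (edgeR adjusted p = 0.429). With the block it passed without pair 2 or without pair 3 (edgeR adjusted p = 0.0414 and 0.0236). Markers of inhibitory neurons, the cells known for Npas1, summed to 941 to 1030 CPM in NMDA and 869 to 952 CPM in control libraries. None of those 13 genes was called without the block, and their median log2 fold change was 0.04. With the block edgeR called 1 of them, Sst, higher and none lower, against 5.65% and 8.35% of all tested genes. DESeq2 with the block did not call Sst (adjusted p = 0.0826). The edgeR call was lost without pair 2 or pair 3 (adjusted p = 0.0506 and 0.206). Npas1 (ENSMUSG00000001988) lies on chromosome 7 from 16455721 to 16477728 on the minus strand.

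Npas2, a close relative of Clock that also pairs with Arntl, did not pass the test. It had 10.8, 9.25 and 10.3 CPM in NMDA replicates 1, 2 and 3, against 10.5, 10.4 and 10.9 CPM in control replicates 1, 2 and 3. The groups overlapped, and the pairs differed in sign. The means were 10.1 ± 0.786 CPM in NMDA and 10.6 ± 0.276 CPM in control libraries, a ratio of 0.952 with a 95% interval of 0.778 to 1.17 (edgeR adjusted p = 0.849). Npas2 (ENSMUSG00000026077) lies on chromosome 1 from 39193731 to 39363236 on the plus strand.

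The rest of the bHLH-PAS family held no member called without the block. Of 8 other class I genes 5 were tested, and Ahrr, Sim1 and Sim2 were too low to test. None was called higher or lower by edgeR, DESeq2 or limma-voom. At an unadjusted edgeR p under 0.05, 1 was higher and 1 lower, against 5.19% and 8.47% of all tested genes. The list's median log2 fold change was -0.24. With the block edgeR called Epas1, a HIF subunit, higher and Clock, the circadian partner of Arntl, lower, whereas DESeq2 with the block called neither (adjusted p = 0.0528 for Epas1 and 0.137 for Clock). Epas1 had 46.0, 43.4 and 54.6 CPM in NMDA replicates 1, 2 and 3, against 43.2, 34.5 and 34.6 CPM in control replicates 1, 2 and 3 (log2 0.36, edgeR adjusted p = 0.264, and 0.0162 with the block). Clock had 85.5, 73.8 and 70.0 CPM in the NMDA and 96.4, 87.5 and 87.7 CPM in the control libraries in the same order (log2 -0.24, edgeR adjusted p = 0.313, and 0.0235 with the block). In both genes the groups did not overlap, as held for 19.3% of all tested genes. The blocked edgeR call was lost without pair 3 for Epas1 (adjusted p = 0.189) and without pair 2 or pair 3 for Clock (0.18 and 0.197). The remaining class II partner that was tested, Arntl, averaged 27.9 ± 2.92 CPM in NMDA and 25.9 ± 2.86 CPM in control libraries and did not pass with or without the block (edgeR adjusted p = 0.488 and 0.741).

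Beyond the bHLH-PAS family, PAS domains also occur in the PER proteins and in the Ncoa coactivators, of which 6 genes were tested. Per1, a repressor of the circadian clock, is also induced by calcium and CREB signalling. Among these genes it was the one called without the block at the default count filter. It had 68.0, 61.3 and 53.7 CPM in NMDA replicates 1, 2 and 3, against 30.4, 22.6 and 23.5 CPM in control replicates 1, 2 and 3. The groups were far apart, with means of 61.0 ± 7.15 CPM in NMDA and 25.5 ± 4.27 CPM in control libraries and a log2 fold change of 1.26 ± 0.14 (SE, edgeR adjusted p = 0.00419). With the block edgeR also called Per2 higher (log2 0.36, edgeR adjusted p = 0.0169) and Ncoa3, a coactivator of nuclear receptors, lower. DESeq2 with the block did not call Per2 (adjusted p = 0.116) and called Ncoa3 lower (adjusted p = 0.0106), and the edgeR call of Per2 was lost without pair 2 (adjusted p = 0.0689). Ncoa3 averaged 24.1 ± 2.49 CPM in NMDA and 33.5 ± 3.55 CPM in control libraries (log2 -0.48, edgeR adjusted p = 0.00107 with the block). Without the block Ncoa3 also passed in edgeR with no low-count filter (adjusted p = 0.0457). The median log2 fold change of these 6 genes was -0.03. Over all tested genes edgeR with the block called 5.65% higher and 8.35% lower.

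**Figure D4:**
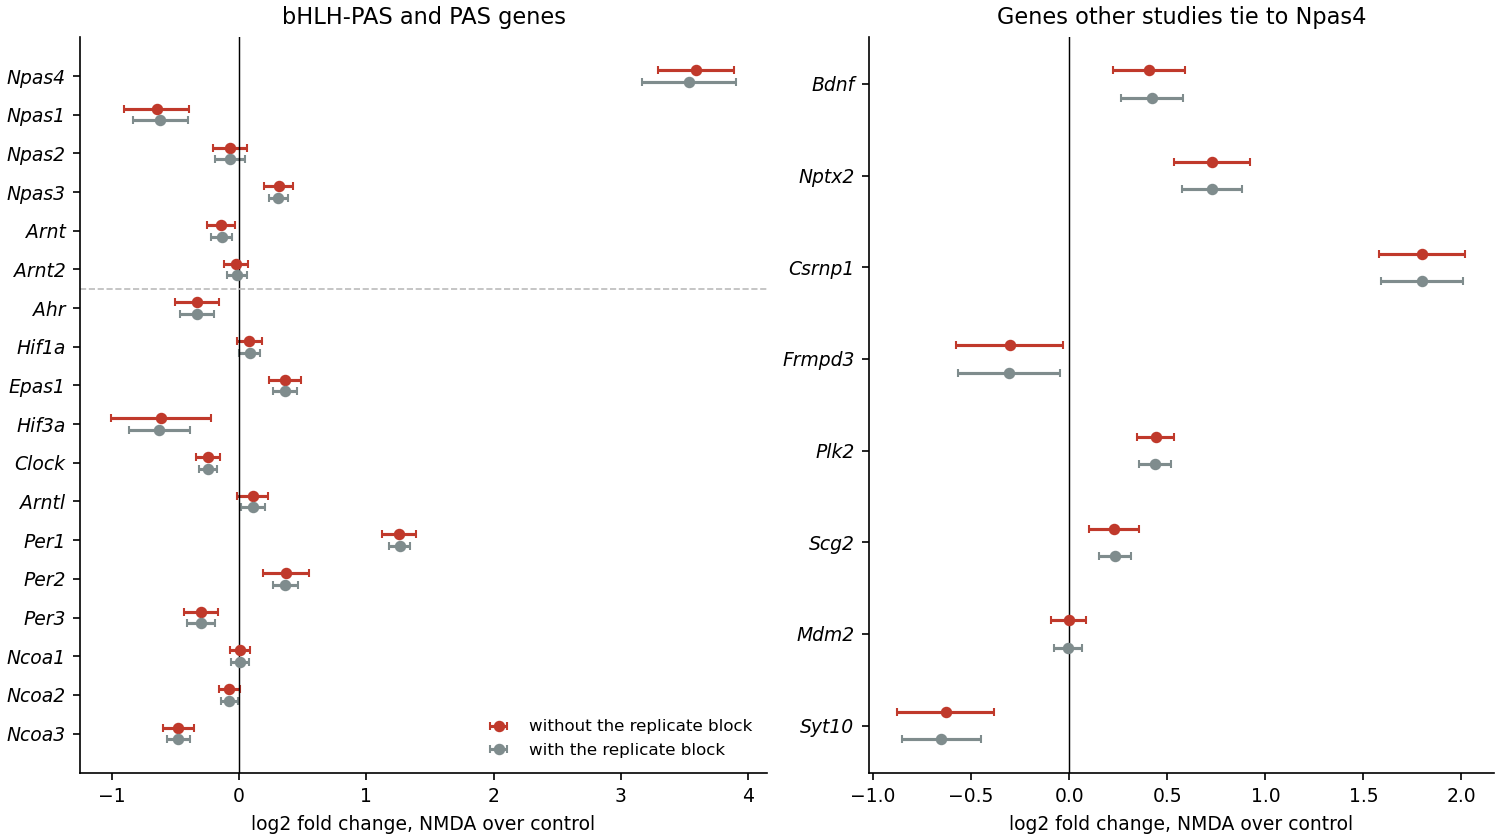
Log2 fold change of NMDA over control (x axis) with its standard error, without the replicate block (red) and with it (grey), for the 6 members and other bHLH-PAS and PAS genes (left panel, dashed line below the members) and for 8 genes that other studies tie to Npas4 (right panel, on its own x axis). Npas4 stood at 3.59, Per1 at 1.26 and Csrnp1 at 1.80, and Npas3 lay at 0.31 in both fits with a smaller error under the block.

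The circadian genes that pair with or act on Npas2 numbered 20. Against 0.376% of all tested genes called higher and 0.0546% lower, 3 of the 20 were higher and none lower without the block. These were Per1, Nfil3, a bZIP repressor, with 30.2 ± 5.49 CPM in NMDA and 12.9 ± 0.714 CPM in control libraries (log2 1.22), and Bhlhe40, a bHLH repressor of Arntl-driven genes, with 33.7 ± 1.63 CPM in NMDA and 19.1 ± 1.84 CPM in control libraries (log2 0.82). Their edgeR adjusted p were 0.00539 for Nfil3 and 0.00922 for Bhlhe40, and without control replicate 2 both lost the call (0.0512 and 0.087). With the block edgeR called 5 higher and 1 lower, against 5.65% and 8.35% of all tested genes. This added Bhlhe41 (log2 0.54, edgeR adjusted p = 0.00145), Per2 and Clock. DESeq2 with the block called 4 higher and none lower, without Per2 and Clock, against 3.36% and 3.6% of its tested genes. The list's median log2 fold change was 0.15.

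Genes that other studies of neurons tie to Npas4 were mostly not called at this time after stimulation. Of 8 such genes edgeR called 1 higher and none lower without the block, and 3 higher and 1 lower with it. Over all tested genes it called 0.376% higher and 0.0546% lower without the block, and 5.65% and 8.35% with it. DESeq2 called 2 of the 8 higher and none lower without the block, against 1.1% and 1.1% of its tested genes. With the block DESeq2 called 3 higher and none lower, against 3.36% and 3.6%. The median log2 fold change was 0.32. Csrnp1, a nuclear protein of the cysteine and serine rich family, had 4.49, 5.23 and 4.48 CPM in NMDA replicates 1, 2 and 3, against 1.41, 1.45 and 1.21 CPM in control replicates 1, 2 and 3. It rose to 4.73 ± 0.432 CPM in NMDA libraries, against 1.36 ± 0.125 CPM in control libraries, a log2 fold change of 1.80 ± 0.22 (SE, edgeR adjusted p = 0.00562). The call was lost without control replicate 2 (edgeR adjusted p = 0.0512), although the groups stayed apart. Nptx2, a secreted pentraxin that gathers AMPA receptors at excitatory synapses on interneurons, had 6.37, 6.56 and 8.26 CPM in NMDA and 4.44, 3.5 and 4.85 CPM in control replicates 1, 2 and 3. Its log2 fold change of 0.73 ± 0.19 passed with the block (edgeR adjusted p = 0.00308) and not without it (0.172).

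Plk2, a kinase that weakens synapses after sustained activity, had every NMDA library above every control library, as held for 8.18% of all tested genes. It had 191, 170 and 155 CPM in NMDA and 123, 125 and 133 CPM in control replicates 1, 2 and 3 (log2 0.44 ± 0.10, edgeR adjusted p = 0.108, and 0.00128 with the block). Without the block it passed in DESeq2 (adjusted p = 0.00499) and in edgeR with no low-count filter (adjusted p = 0.0153). Syt10, a synaptotagmin tied to IGF-1 release in olfactory neurons, was lower with the block in edgeR (log2 -0.65, adjusted p = 0.0416) and not without it (0.312). The call was not made by DESeq2 with the block (adjusted p = 0.182) and was lost in edgeR without pair 3 (adjusted p = 0.342). Its values were 5.90, 3.97 and 2.93 CPM in NMDA and 5.90, 6.45 and 7.28 CPM in control replicates 1, 2 and 3, so pair 1 did not differ. Bdnf, the neurotrophin best known as an Npas4 target, had 20.1, 21.1 and 17.4 CPM in NMDA and 12.1, 12.6 and 19.4 CPM in control replicates 1, 2 and 3. Control replicate 3 reached into the NMDA range, and Bdnf did not pass with or without the block (edgeR adjusted p = 0.105 and 0.369). Scg2, Mdm2 and Frmpd3 had log2 fold changes of 0.23, -0.0031 and -0.30 and passed in neither fit.

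Genes that the other Arnt dimers act on were largely not called. Of 12 tested hypoxia genes bound by HIF and Arnt dimers none was called by edgeR, DESeq2 or limma-voom without the block. None had an unadjusted edgeR p under 0.05, against 5.19% of all tested genes higher and 8.47% lower. With the block edgeR called Slc2a1, a glucose transporter, higher (log2 0.38, edgeR adjusted p = 0.00709) and Vegfa, an angiogenic factor, lower (log2 -0.27, edgeR adjusted p = 0.0179). That fit called 5.65% of all tested genes higher and 8.35% lower. DESeq2 with the block called Slc2a1 (adjusted p = 0.0438) and not Vegfa (adjusted p = 0.14). The blocked edgeR call was lost without pair 2 for Slc2a1 (adjusted p = 0.146) and without pair 2 or pair 3 for Vegfa (0.0716 and 0.155). The list's median log2 fold change was 0.18. Of 6 AHR and Arnt target genes 3 were tested and 1, Tiparp, a poly(ADP-ribose) polymerase that represses AHR, was higher. Tiparp had 105, 124 and 93.6 CPM in NMDA and 60.9, 69.5 and 56.6 CPM in control replicates 1, 2 and 3 (log2 0.79 ± 0.12, edgeR adjusted p = 0.0206). Every NMDA library of Tiparp was above every control library, as held for 8.18% of all tested genes. Its call was lost without NMDA replicate 2 (0.0836) or without control replicate 1, 2 or 3 (0.104, 0.0588 and 0.0887). The best known AHR targets were low, with Cyp1a1 at most 0.373 CPM in NMDA and 0.704 CPM in control libraries and Cyp1a2 at 0 counts in all 6. Chaperones and stability factors of bHLH-PAS proteins, 8 genes, held none called without the block in edgeR, DESeq2 or limma-voom, and 1 at an unadjusted edgeR p under 0.05. With the block Hsp90aa1, the inducible HSP90 that holds AHR, was higher (log2 0.32, edgeR adjusted p = 0.0162), a call lost without pair 2 (adjusted p = 0.156), and the list's median was 0.15.

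The genes most like Npas4 across the 6 libraries were other rapid transcription factors. Likeness was the root mean square difference between log2 CPM values centred on each gene's mean, over 12763 genes, and is a description of 6 libraries in 2 groups that share the NMDA difference. The closest was Egr2, a zinc finger factor, at 0.272, and then came Junb at 0.400, Maff at 0.426, Atf3 at 0.457, Nr4a2 at 0.467 and Nr4a1 at 0.477. Egr2 had 19.9, 26.3 and 13.1 CPM in NMDA replicates 1, 2 and 3, against 2.17, 1.78 and 2.06 CPM in control replicates 1, 2 and 3, with its highest NMDA and its lowest control library in replicate 2 as in Npas4. The same 6 genes were closest with DESeq2 size factors in place of TMM scaling. That is not a separate check, because a library's scaling nearly cancels when 2 genes are compared within the same libraries. As a list, the 16 rapid activity-induced transcription factors had 14 higher and none lower without the block and 16 higher with it, with a median log2 fold change of 2.56, and the groups of all 16 did not overlap, against 19.3% of all tested genes. In this list the 3 NMDA libraries summed to 993 to 1280 CPM and the 3 control libraries to 233 to 279 CPM. The 14 rapid effectors had 10 higher and none lower (12 and none with the block, 4 without control replicate 2) and a median of 1.1. Beside these 2 lists, edgeR called 0.376% of all tested genes higher and 0.0546% lower without the block. With the block it called 5.65% and 8.35%. For the other members the closest genes were AU041133 for Npas1 (0.106), Hgsnat for Npas2 (0.0111), Hnrnpf for Npas3 (0.0314), Baz1b for Arnt (0.0282) and Nup214 for Arnt2 (0.0186), on the same log2 scale.

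None of the 6 tested coding genes nearest to Npas4 on chromosome 19 was called. Mrpl11, Peli3 and Dpp3 lie 17356, 41228 and 56068 bases away on the side of lower coordinates, and Slc29a2, B4gat1 and Brms1 lie 33544, 48510 and 51038 bases away on the other side. Their log2 fold changes ranged from -0.12 for Peli3 to 0.18 for B4gat1, and in all 6 the groups overlapped. The lack of a call held for edgeR and DESeq2 with and without the block and for limma-voom. Over all tested genes edgeR called 0.376% higher and 0.0546% lower without the block, so few calls would be seen in any 6 genes. With the block it called 5.65% and 8.35%. Without the block none of the 6 had an unadjusted edgeR p under 0.05. With the block B4gat1 fell under that limit and was not called after adjustment. Mrpl11, a mitochondrial ribosomal protein gene and the nearest of them, had 48.6, 47.4 and 46.7 CPM in NMDA and 56.1, 47.2 and 41.4 CPM in control replicates 1, 2 and 3. On the minus strand, where Npas4 starts at its higher coordinate, Slc29a2 is the nearest tested coding gene upstream.

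**Figure D5:**
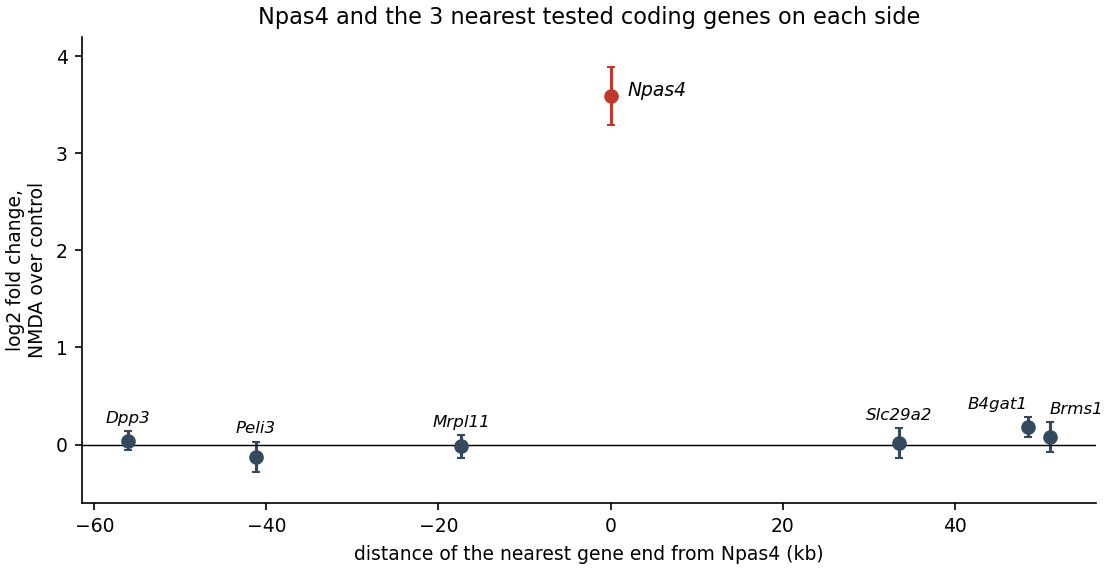
Log2 fold change of NMDA over control with its standard error (y axis) for Npas4 and the 3 nearest tested protein-coding genes on each side, placed by the distance in kb of their nearer end from the Npas4 gene (x axis, negative towards lower coordinates). Npas4 stood at 3.59 and its 6 neighbours between -0.12 and 0.18.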

How the data were processed

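The data are 3 libraries of NMDA-treated and 3 of untreated neurons, made from RNA with an integrity number of at least 8 as stranded poly(A) libraries read from one end, per the labels' protocols. The growth protocol also mentions etoposide, but no library used here is labelled with it. The deposited values are the authors' whole-number counts of reads for each gene, not normalized. Tools named in the submitters' processing notes are HTSeq, TopHat and Trimmomatic, with builds GRCm38.p6 and mm10. Their versions, annotation release and strand setting were not given in the sources used here. Every count column matched a sample. Rows without a symbol (2153, with 0.219% to 0.246% of counts) stayed in the fits under their identifiers.

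Counts were tested with edgeR 4.0.16 in R 4.3.3 (default filter with minimum count 10 and minimum total 15, TMM scaling, robust quasi-likelihood F test, group as the only term), with Benjamini-Hochberg adjustment over all 14642 genes and a threshold of 0.05. CPM were computed here from the deposited counts, and log2 CPM with a prior count of 0.5. Lengths and positions came from GENCODE M21 (GRCm38), which held 36429 of the identifiers. Alternatives were DESeq2 1.42.0, limma-voom 3.58.1, other scalings and filters, the replicate block, and each library or pair left out. Fits were run on simulated counts drawn without a replicate effect, so that check does not cover how the blocked fit handles paired libraries.

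The correlation of deviations from group means was 0.52, 0.37 and 0.47 for same-numbered libraries and -0.39 to -0.033 for others. All 3 exceeded 0.1, so replicate numbers were treated as pairs, a choice that rests on the data, as no label explains the numbers. Residual degrees of freedom were 4 without and 2 with the block.

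The members and 17 lists were chosen with earlier results of these data known. Genes are named by a rule: the members, the genes most like them (mean log2 CPM of 1 or more), the called members of each list, and the 3 nearest tested coding genes on each side of Npas4. Cyp1a1, Cyp1a2, Cldn5, Fosb and the untested or uncalled list members were named outside it, after their values were seen. Not every gene that the rule gave is named, and several called neuron markers and rapid effectors are left out.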

Additional observations from a re-analysis of the deposited data

How the results depend on the processing

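Over 17 alternatives Npas4 stayed higher in NMDA, with log2 fold changes of 3.06 to 3.82. It was called in all but one, the fit with the replicate block and without replicate 1 (3.82). Leaving out each library without the block gave 3.24 to 3.76. Npas1 was called with the block and without replicate 2 (-0.76) or without replicate 3 (-0.78), and leaving out single libraries or pairs gave -0.80 to -0.29. Npas3 was called with the block in edgeR (0.31) and DESeq2 (0.32), and with the block and without replicate 1 (0.34) or 3 (0.33); leaving out single libraries or pairs gave 0.25 to 0.40. The Arnt2 value turned positive without control replicate 1 (0.045) and with the block without replicate 1 (0.064) or 3 (0.021), and leave-one-out values without the block ran from -0.10 to 0.045. Npas2 and Arnt kept their sign and were not called in any of the 17. The cause was not tested.

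Counts over all genes moved more than those of the members. Against 55 higher and 8 lower in NMDA, DESeq2's Wald test gave 150 and 150, no low-count filter 130 and 130, the replicate block 828 and 1223, the block in DESeq2 444 and 475, and the block without replicate 1, 2 or 3 gave 1341, 335 and 705 higher and 1366, 683 and 758 lower. DESeq2 size factors gave 5 lower. Leaving out single libraries gave 19 to 89 higher and 0 to 57 lower. Levels per kilobase depend on the length used: with the longest transcript Arnt was at 6.69 CPM per kilobase in NMDA and 7.37 in control libraries. With 33 to 100 counts per library, Npas1 is the member that depth limits most. With a 3 against 3 design the exact permutation test cannot go below p = 0.1.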
